A study of Mus musculus with 4 samples.

Results

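The genes described here are grouped as Hox cofactors of the TALE homeobox class and were measured by RNA-seq in posterior epiblast tissue from wild type mice. They were picked out by name, as the entries of the deposited table whose gene symbol was Meis1, Meis2, Meis3, Pbx2, Pbx3, Pbx4, Pknox1, Pknox2 or Tgif1. All 9 symbols were found, each once, among 53397 genes, and all 9 passed the filter on low values, a normalized count of at least 1 in at least 2 libraries, which kept 13903 genes. Each of the 9 also reached that value in all 4 libraries, so none entered the comparison through 1 stage alone. They do not make up the whole class, and sums over them are sums over these 9 genes.

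The study set the posterior epiblast at E8.5, when the embryo builds its trunk, against the same region at E7.5, before trunk formation. The E8.5 group was 2 libraries of wild type embryos, and the E7.5 group was 2 libraries of wild type embryos, with no allele, transgene or treatment in either. RNA came from dissected tissue that was pooled, how many embryos went into each pool is not given in the sources used here, and the paper calls the libraries of a stage separate biological replicates. The p-values below therefore rest in part on the spread between 2 pools per stage. The limma fit gives more weight to the spread of other genes at a similar level (2 residual against 12.78 prior degrees of freedom). A small p-value is thus not a measure of the spread of that gene alone. In pooled tissue, fewer cells of a type and less RNA per cell cannot be told apart.

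TALE proteins are transcription factors with extra amino acids in a loop of the homeodomain. Pbx proteins bind DNA together with Hox proteins through a short peptide of the Hox partner, and Meis and Pknox (Prep) proteins bind Pbx through their amino-terminal part, which helps to keep Pbx in the nucleus and adds a further DNA contact. Tgif1 recognises DNA similar to that of Meis and acts as a repressor that also holds back Smad-dependent TGF-β and Nodal signaling. Together the Pbx, Meis and Pknox proteins sharpen the DNA choice of Hox proteins, which pattern the hindbrain and the trunk.

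The genes lie on 6 chromosomes of GRCm38 and all are annotated as protein coding in GENCODE vM21. Meis1 (ENSMUSG00000020160.18) occupies chr11:18879817-19018985 on the minus strand, Meis2 (ENSMUSG00000027210.20) chr2:115863064-116065839 on the minus strand and Meis3 (ENSMUSG00000041420.18) chr7:16175090-16186504 on the plus strand. Pbx2 (ENSMUSG00000034673.14) occupies chr17:34591266-34597400 on the plus strand, Pbx3 (ENSMUSG00000038718.15) chr2:34171457-34373142 on the minus strand and Pbx4 (ENSMUSG00000031860.17) chr8:69832491-69872292 on the plus strand. Pknox1 (ENSMUSG00000006705.13) occupies chr17:31564734-31607693 on the plus strand, Pknox2 (ENSMUSG00000035934.16) chr9:36890982-37147407 on the minus strand and Tgif1 (ENSMUSG00000047407.17) chr17:70844205-70853546 on the minus strand. The gene spans ran between 6.14 kb for Pbx2 and 256 kb for Pknox2. The libraries do not keep the strand, so reads of a gene and of one that overlaps it cannot be told apart where their exons meet. The genes annotated over Pbx2 (Gpsm3, on the same strand) summed to at most 18.0% of the value of Pbx2 in a library. For Meis1, with 5 such genes, the share was at most 7.97%, for Pbx3 at most 4.62% and for Pknox2 at most 3.91%. The gene annotated over Pknox1 that has values was at 0 in all 4 libraries, and Meis2, Meis3, Pbx4 and Tgif1 had no overlapping gene.

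Promoter sequence was matched by symbol in RefSeq windows on GRCm38.p6 that run 250 bases before to 50 bases after an annotated transcription start. Windows were found for 6 of the 9 genes, 10 windows in all, 5 of them for Tgif1. The windows of the Meis genes are shown because Meis2 moved against Meis1 and Meis3 between the stages. The last 50 bases, which follow the start, are in capitals.
Meis1, chr11:19018920-19019219, minus strand: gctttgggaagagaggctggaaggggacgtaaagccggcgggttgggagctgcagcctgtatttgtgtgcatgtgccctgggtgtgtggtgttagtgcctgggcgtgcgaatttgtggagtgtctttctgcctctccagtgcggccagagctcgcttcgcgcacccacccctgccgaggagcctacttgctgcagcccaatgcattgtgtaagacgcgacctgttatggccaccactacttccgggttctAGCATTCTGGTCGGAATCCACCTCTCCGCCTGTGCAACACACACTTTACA
Meis2, chr2:116064570-116064869, minus strand: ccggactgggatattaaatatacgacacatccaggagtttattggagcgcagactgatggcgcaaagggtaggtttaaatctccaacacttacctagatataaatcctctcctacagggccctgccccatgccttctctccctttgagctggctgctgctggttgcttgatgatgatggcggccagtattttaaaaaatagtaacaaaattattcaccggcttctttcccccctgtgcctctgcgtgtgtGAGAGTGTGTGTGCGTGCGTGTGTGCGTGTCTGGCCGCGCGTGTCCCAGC
Meis3, chr7:16175145-16175444, plus strand: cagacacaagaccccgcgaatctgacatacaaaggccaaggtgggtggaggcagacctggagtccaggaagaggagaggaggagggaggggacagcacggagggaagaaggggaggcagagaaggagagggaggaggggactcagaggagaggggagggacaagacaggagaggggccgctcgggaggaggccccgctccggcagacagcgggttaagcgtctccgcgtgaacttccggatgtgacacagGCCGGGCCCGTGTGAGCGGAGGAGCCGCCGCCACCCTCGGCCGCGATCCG
Over all 32851 windows of the reference the median was 7 CpG and 52.7% G and C. The Meis3 window held 21 CpG at 66.7% G and C, the Meis1 window 15 CpG at 58.3%, and the Meis2 window 13 CpG at 51.0%. The Meis2 and Meis3 windows lie inside the annotated gene spans. All 3 Meis windows were above the median in CpG, and Meis2 was the lowest of them on both measures. The annotation holds 9 transcripts of Meis1, 19 of Meis2 and 9 of Meis3. Whether the sequence of these windows bears on the directions of the Meis genes was not tested.

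The windows were searched on both strands for the letters TGACAG, the core read by Meis, Pknox and Tgif proteins, and for TGATNNAT, the form read by Pbx with a Hox partner. The patterns do not overlap in the window shown. TGACAG was present in 19.2% of all windows and TGATNNAT in 8.85%. Neither was found in the windows of Meis1, Meis2, Meis3, Pbx2 or Pbx4. For Tgif1, TGACAG was found in 2 of its 5 windows and TGATNNAT in 1, and the window below is shown because its match, in capitals, begins 5 bases after the start.
Tgif1, chr17:70851161-70851460, minus strand: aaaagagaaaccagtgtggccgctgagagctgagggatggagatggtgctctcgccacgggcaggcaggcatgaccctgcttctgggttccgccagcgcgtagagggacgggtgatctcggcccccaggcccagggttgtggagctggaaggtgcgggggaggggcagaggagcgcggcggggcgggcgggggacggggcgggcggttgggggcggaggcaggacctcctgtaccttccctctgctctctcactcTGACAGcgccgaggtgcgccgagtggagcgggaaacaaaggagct
A match is a description of letters only, and these data hold no measurement of binding.

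The libraries held 18488218 and 18515565 reads in genes at E8.5, and 19111464 and 19493342 at E7.5. The most abundant entry, CT010467, took 18.6% and 18.5% of the reads at E8.5, and 25.6% and 19.0% at E7.5, so that E7.5 replicate 1 stood apart. Values without that library are given for the genes whose call or direction changed. Mitochondrially encoded genes took between 3.56% and 4.31% of reads in all 4 libraries.

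The 9 genes split by direction. Meis3, Pknox1 and Meis1 were upregulated at E8.5, by 48.8%, 39.1% and 34.2% of their E7.5 means. At E8.5 the mean of Pbx3 fell by 52.2%, that of Meis2 fell by 37.6% and that of Tgif1 fell by 10.8%, the last with a call that 6 of 12 alternative settings did not keep. Pknox2, Pbx2 and Pbx4 did not pass the test. Genes were called at an adjusted p under 0.05 in limma on log2(value + 1), with Benjamini-Hochberg adjustment over all 13903 genes. By this rule 3 of 9 were higher at E8.5, beside 25.6% of all genes tested, and 3 of 9 were lower, beside 26.4%, so that the share called was near that of genes at large. With a log2 fold change of at least 1 as well, none was higher, beside 4.48% of all genes tested, and 1 was lower, Pbx3, beside 6.35%. The 2 stages did not overlap in 8 of the 9 genes, beside 76.3% of the genes tested. The median absolute log2 fold change was 0.41 over the 9 genes and 0.29 over all genes tested, and the median signed value was 0.11 over the 9 genes and -0.0074 over all. By absolute log2 fold change Pbx3 stood at percentile 89.2 of the genes tested, Meis2 at 79.4 and Meis3 at 73.7, while Pbx4 stood at 22.4.

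**Figure D1:**
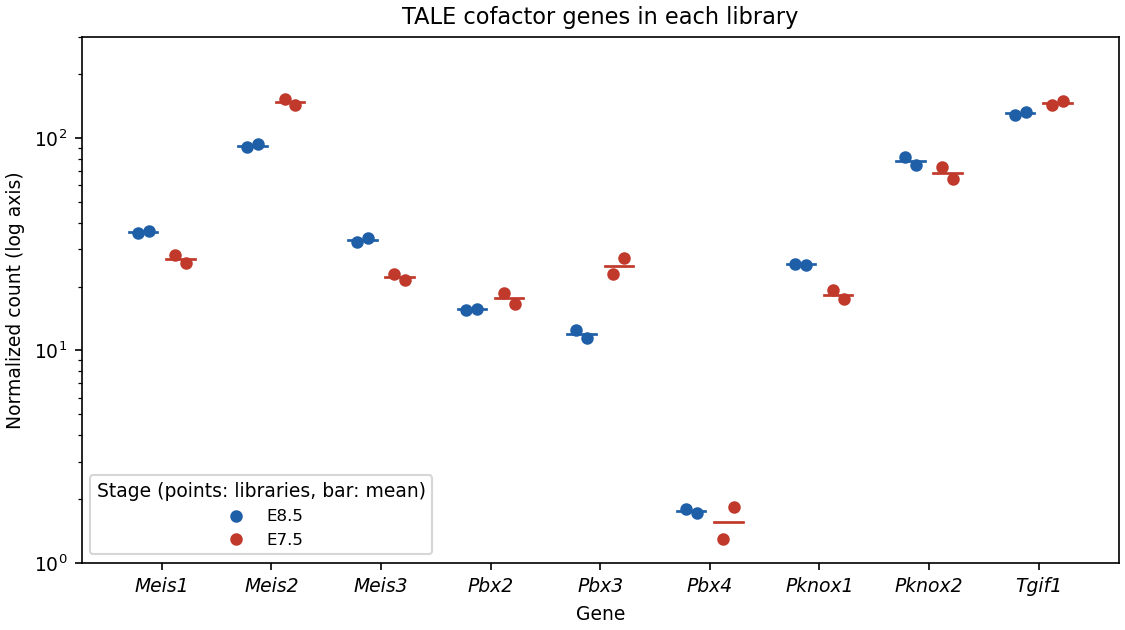
Normalized counts of the 9 genes on a log axis, with a point for each library and a bar for the mean of a stage, E8.5 in blue and E7.5 in red. The points of the stages are apart for every gene except Pbx4, and the widest gap is that of Pbx3, at a mean of 12.0 at E8.5 and 25.1 at E7.5.

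**Figure D2:**
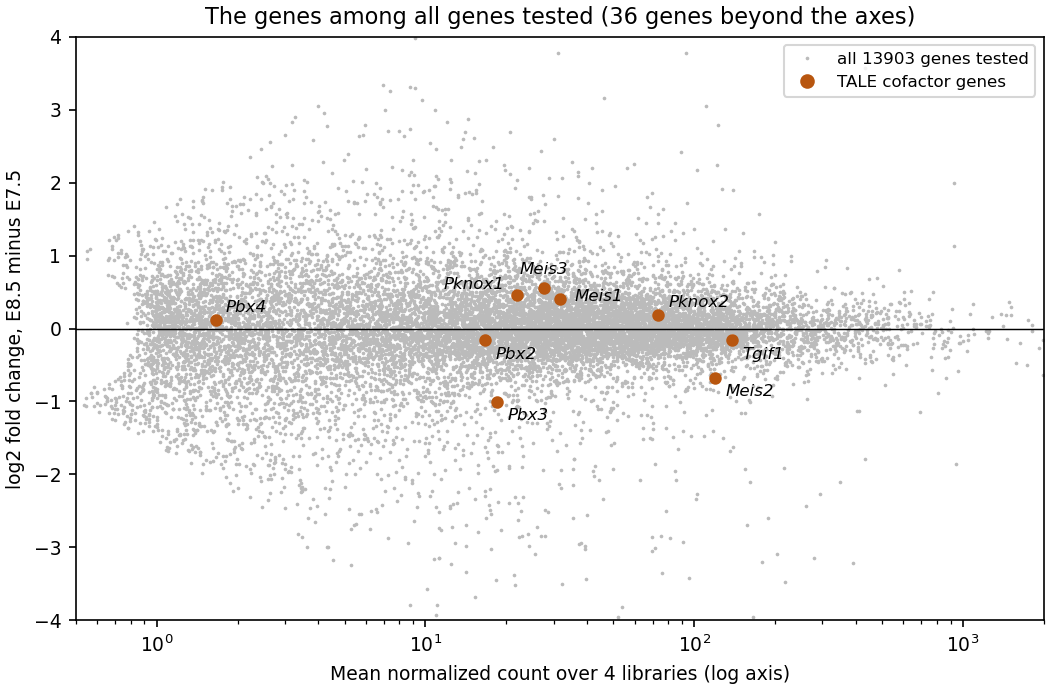
Log2 fold change, E8.5 minus E7.5, of all 13903 genes tested (grey) against their mean normalized count on a log axis, with the 9 genes in orange and 36 genes beyond the axes. Pbx3, at -1.0, lies lowest of the 9 and Meis3, at 0.55, highest.

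The Meis genes did not move together. Meis proteins are the partners of Pbx that also bind Hox proteins of the posterior paralog groups directly. Meis2, whose expression in the limb is known to follow retinoic acid, had a normalized count of 91.2 and 93.3 at E8.5, and 152 and 144 at E7.5. Both E8.5 libraries were well below both E7.5 libraries. The mean was 92.3 ± 1.48 at E8.5 and 148 ± 6.17 at E7.5 (SD, n = 2 each), with a log2 fold change of -0.67 (SE 0.06, 95% interval -0.81 to -0.54, limma adjusted p = 4.7e-07). Meis2 rested on 1738 to 2830 reads per library. Its E7.5 libraries differed from each other by more than counting error. Replicate 1 over replicate 2 was 0.085 on the log2 scale (95% counting interval 0.0087 to 0.16).

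Meis1, known as a partner of Hoxa9 in leukaemia and as a gene that blood formation needs, was at 35.6 and 36.7 at E8.5, and at 28.1 and 25.8 at E7.5. The E8.5 libraries were both the higher ones. Its means were 36.2 ± 0.759 at E8.5 and 27.0 ± 1.62 at E7.5 (SD, n = 2 each), with a log2 fold change of 0.41 (SE 0.09, 95% interval 0.22 to 0.60, limma adjusted p = 0.0013). Meis3, which is known from Xenopus and zebrafish for posterior patterning of the neural plate, was at 32.3 and 33.8 at E8.5, and at 22.9 and 21.5 at E7.5. Again the stages did not overlap. Its means were 33.0 ± 1.07 at E8.5 and 22.2 ± 1.05 at E7.5 (SD, n = 2 each), with a log2 fold change of 0.55 (SE 0.09, 95% interval 0.35 to 0.75, limma adjusted p = 0.00016). Meis1, Meis2 and Meis3 kept call and direction in all 12 alternative settings, at a log2 fold change of 0.35 to 0.47 for Meis1, -0.72 to -0.63 for Meis2 and 0.50 to 0.60 for Meis3.

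Within a library, the change of a ratio between 2 genes depends neither on the scaling of the library nor on the lengths of the genes, although the size of the ratio itself depends on their lengths. The ratio of Meis1 to Meis2 was 0.391 and 0.393 at E8.5, and 0.185 and 0.180 at E7.5, which is a 2.15-fold difference. The ratio of Meis2 to Meis3 was 2.83 and 2.76 at E8.5, and 6.64 and 6.69 at E7.5, 0.419 times as high at E8.5. The replicates of a stage lay close together in both ratios, and the stages were far apart. The ratio of Meis1 to Meis3 was 1.10 and 1.09 at E8.5, and 1.23 and 1.20 at E7.5, a smaller difference. In all, 7 pairs of genes within a subfamily were compared by a two-sided exact permutation test. With 2 libraries a stage it cannot go below 0.333, the value of 6 pairs (0.389 after adjustment over the 7), and so none of them could pass.

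**Figure D3:**
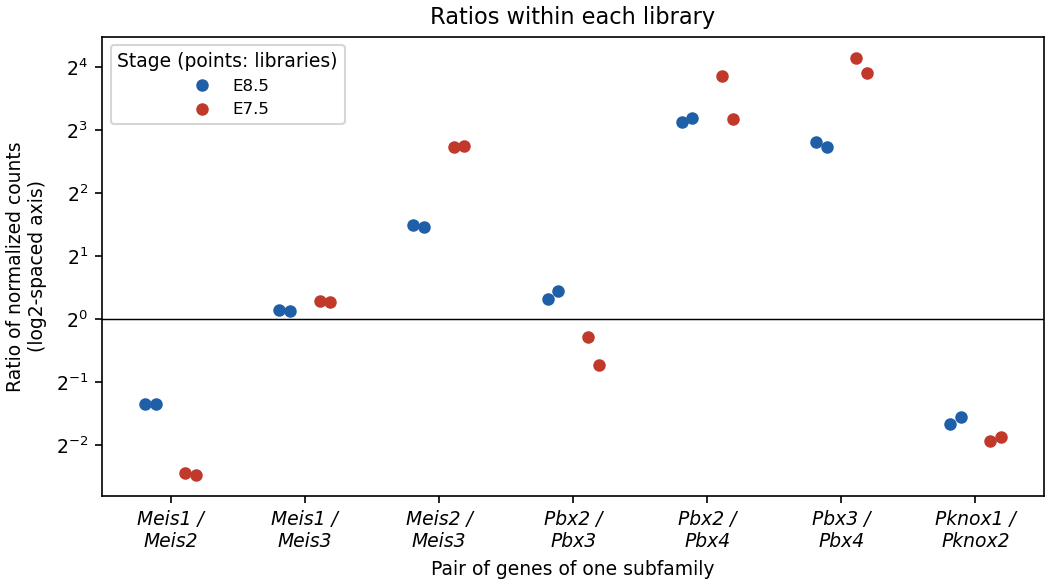
Ratio of normalized counts between 2 genes of a subfamily in each library, on a log2-spaced axis, with E8.5 in blue to the left of E7.5 in red. The stages are apart in 6 of 7 pairs and overlap for Pbx2 over Pbx4, and the ratio of Meis1 to Meis2 was 2.15 times as high at E8.5.

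Among the Pbx genes, whose products contact the Hox proteins, Pbx3 fell, while Pbx2 and Pbx4 did not pass the test. Pbx3, which newborn mice need to breathe, was at 12.5 and 11.5 at E8.5, and at 22.9 and 27.2 at E7.5. The E8.5 libraries were at about the same level, and both were far below the E7.5 ones. Its means were 12.0 ± 0.709 at E8.5 and 25.1 ± 3.04 at E7.5 (SD, n = 2 each), with a log2 fold change of -1.0 (SE 0.12, 95% interval -1.25 to -0.75, limma adjusted p = 4.9e-06). The E7.5 libraries of Pbx3 differed from each other by more than counting error, replicate 1 over replicate 2 being -0.25 on the log2 scale (95% counting interval -0.44 to -0.060). Pbx3 was lower at E8.5 in all 12 alternatives, at -1.12 to -0.86, but its place past a log2 fold change of 1 was narrow. It was -0.88 without E7.5 replicate 2, -0.95 without E8.5 replicate 2 and -1.12 without E7.5 replicate 1.

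Pbx2, a close relative whose loss alone is tolerated by mice, was at 15.6 and 15.7 at E8.5, and at 18.7 and 16.5 at E7.5. The E8.5 libraries were lower than both E7.5 libraries, by little in the case of E7.5 replicate 2. The log2 fold change was -0.16 (SE 0.11, 95% interval -0.40 to 0.083, limma adjusted p = 0.26), and it was -0.073 without E7.5 replicate 1 and -0.25 without E7.5 replicate 2. Pbx4, known for its expression in the testis, had few reads, 34 and 33 at E8.5, and 23 and 36 at E7.5. Its normalized counts were 1.78 and 1.72 at E8.5, and 1.29 and 1.83 at E7.5, so that the stages overlapped. Counting error alone gave exact 95% intervals of 1.24 to 2.49 and 1.19 to 2.42 at E8.5, and 0.819 to 1.94 and 1.28 to 2.53 at E7.5. The log2 fold change of Pbx4 was 0.11 (SE 0.18, 95% interval -0.27 to 0.50, limma adjusted p = 0.62), and it was -0.037 without E7.5 replicate 1, so no difference was detectable at this depth. The ratio of Pbx2 to Pbx3 was 1.25 and 1.36 at E8.5, and 0.816 and 0.605 at E7.5, a 1.86-fold difference with no overlap. The ratio of Pbx3 to Pbx4 was 7.0 and 6.67 at E8.5, and 17.7 and 14.9 at E7.5. That of Pbx2 to Pbx4 overlapped between the stages (8.74 and 9.09 at E8.5, 14.5 and 9.03 at E7.5, exact permutation p = 0.667).

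The Pknox genes encode the other partners of Pbx, and both had higher means at E8.5. Pknox1 (Prep1), which the epiblast of mice needs to survive, was at 25.7 and 25.3 at E8.5, and at 19.2 and 17.5 at E7.5. The stages did not overlap, and the E8.5 libraries were nearly equal. Its means were 25.5 ± 0.239 at E8.5 and 18.3 ± 1.18 at E7.5 (SD, n = 2 each), with a log2 fold change of 0.46 (SE 0.10, 95% interval 0.24 to 0.67, limma adjusted p = 0.0016). Pknox1 was higher at E8.5 in all 12 alternatives, at 0.39 to 0.52. Pknox2 was at 81.2 and 74.8 at E8.5, and at 73.5 and 63.9 at E7.5. The lower E8.5 library was only just above the higher E7.5 library. The log2 fold change of Pknox2 was 0.18 (SE 0.08, 95% interval 0.014 to 0.35, limma adjusted p = 0.065) and did not pass the test. Without E7.5 replicate 1 it was 0.28 and passed (adjusted p = 0.013), as it did with the replicate number as a block (adjusted p = 0.045). Without E7.5 replicate 2 it was 0.085 (adjusted p = 0.36) and without E8.5 replicate 1 it was 0.13 (adjusted p = 0.4), so that the size of the Pknox2 value rested on single libraries. The replicates of Pknox2 differed by more than counting error at both stages, by 0.12 at E8.5 (95% counting interval 0.014 to 0.22) and by 0.20 at E7.5 (0.089 to 0.32) on the log2 scale. The ratio of Pknox1 to Pknox2 was 0.316 and 0.338 at E8.5, and 0.261 and 0.274 at E7.5, a 1.22-fold difference with no overlap.

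Tgif1, the repressor of the set, which is mutated in human holoprosencephaly, was at 129 and 132 at E8.5, and at 143 and 150 at E7.5. Both E8.5 libraries were below both E7.5 libraries by a small margin. Its means were 131 ± 2.49 at E8.5 and 146 ± 4.41 at E7.5 (SD, n = 2 each), with a log2 fold change of -0.16 (SE 0.06, 95% interval -0.29 to -0.033, limma adjusted p = 0.035). The direction of Tgif1 held in all 12 alternatives, at -0.19 to -0.13, and the call was lost in 6. The adjusted p was 0.25 without E8.5 replicate 1, 0.15 without E8.5 replicate 2 and 0.068 without E7.5 replicate 2. It was 0.052 in edgeR and 0.1 in DESeq2 on the recovered reads, and 0.088 in limma with no filter on low values.

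**Figure D4:**
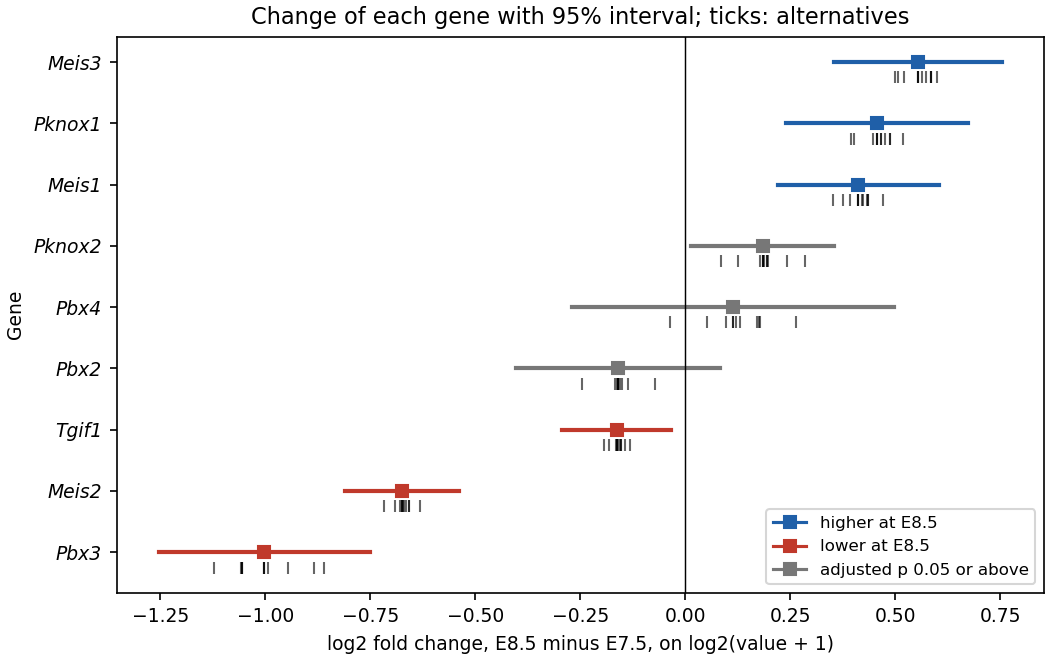
Log2 fold change of each gene, E8.5 minus E7.5, with its 95% interval from limma, blue for higher at E8.5, red for lower and grey for an adjusted p of 0.05 or above, and ticks for the alternative settings. The intervals of Pbx2 and Pbx4 span 0, and of the ticks only 1, that of Pbx4 without E7.5 replicate 1, lies on the other side of 0 from its gene.

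Levels were set side by side as normalized counts per kb of the exons of all annotated transcripts of a gene. At E8.5 Tgif1 was first at 23.2 ± 0.443 and Meis3 second at 10.4 ± 0.336, ahead of Meis2 at 7.66 ± 0.123 and Pknox2 at 7.55 ± 0.439, which overlapped. Pbx2 at 4.29 ± 0.0152, Pknox1 at 3.68 ± 0.0345, Meis1 at 3.43 ± 0.0721, Pbx3 at 1.96 ± 0.116 and Pbx4 at 0.791 ± 0.0195 followed, each apart from the next (SD, n = 2). At E7.5 Tgif1 was again first at 26.0 ± 0.784, and Meis2 was second at 12.3 ± 0.513. Meis3 at 6.99 ± 0.330 overlapped Pknox2 at 6.64 ± 0.657, and Pbx2 at 4.84 ± 0.434 and Pbx3 at 4.11 ± 0.498 came next. Pknox1 at 2.64 ± 0.170 and Meis1 at 2.56 ± 0.154 overlapped, and Pbx4 was last at 0.703 ± 0.170 (SD, n = 2). Between the stages, on this scale, Meis3 was behind Tgif1 at E8.5 and Meis2 at E7.5, and Pbx3 was eighth at E8.5 and sixth at E7.5. The order depended on the length used. Per kb of the longest transcript, a scale added after the data had been seen, Tgif1 stayed first and Pbx4 last at both stages. Pknox2 was second at E8.5 at 21.5, with Meis3 at 17.2 and Meis2 at 16.8, which overlapped. At E7.5 Meis2 was second at 26.9, followed by Pknox2 at 18.9, Meis3 at 11.5 and Pbx3 at 8.78.

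Summed over the 9 genes, the normalized count was 425 and 425 at E8.5, and 482 and 467 at E7.5, and per kb it was 62.7 and 63.3 at E8.5, and 67.4 and 66.2 at E7.5. The sums were lower in both E8.5 libraries, by less than Meis2 or Pbx3 alone moved in percent of their means. Of the reads of the 9 genes (8095 and 8145 at E8.5, 8579 and 9213 at E7.5), the Pknox genes took 25.2% and 23.5% at E8.5, and 19.2% and 17.4% at E7.5. In exact Clopper-Pearson 95% intervals these were 24.2% to 26.1% and 22.6% to 24.5% at E8.5, and 18.4% to 20.1% and 16.6% to 18.2% at E7.5, which cover counting error only. The Pbx genes took 7.03% and 6.79% at E8.5, and 8.91% and 9.75% at E7.5. The Meis genes took 37.5% and 38.5% at E8.5, and 42.2% and 40.8% at E7.5. Per kb the difference of the Meis share turned to 1.44 percentage points higher at E8.5, since the lengths weigh Meis2 and Meis3 differently. The share of Tgif1, 30.4% and 31.1% at E8.5, and 29.7% and 32.0% at E7.5, overlapped between the stages.

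The Hox genes, whose products work with the Pbx, Meis and Pknox proteins, were measured as well, from a list of 39. Their values per kb summed to 428 and 427 at E8.5, and to 199 and 203 at E7.5. The ratio of that sum to the sum of the 9 genes was 6.82 and 6.75 at E8.5, and 2.96 and 3.06 at E7.5. The Hox sum per kb was thus higher relative to the 9 genes in both E8.5 libraries. Tgif1 made up 36.5% and 37.2% of the sum of the 9 genes per kb at E8.5, and 37.8% and 40.1% at E7.5. By paralog group the sums per kb were 167 and 167 at E8.5, and 173 and 177 at E7.5, for groups 1 to 4. They were 158 and 157 at E8.5, and 19.0 and 17.7 at E7.5, for groups 5 to 8. For groups 9 to 13 they were 104 and 103 at E8.5, and 7.95 and 7.98 at E7.5. Of the genes tested, 7 of 12 in groups 1 to 4, 11 of 11 in groups 5 to 8 and 7 of 9 in groups 9 to 13 were higher at E8.5, and 2, 0 and 0 were lower. Over all genes tested 25.6% were higher and 26.4% were lower. Of the Hox genes tested in these groups, 2, 3 and 3 reached the minimum value at E8.5 only. Hoxa9, a partner of both Pbx and Meis1, was at 152 and 153 at E8.5, and at 1.97 and 1.32 at E7.5 (log2 fold change 5.87).

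Proteins known to bind or modify the TALE factors were counted from lists. Of 13 partners and modulators, all tested, 4 rose and 1 fell, and 8 did not pass, beside 25.6% of all genes tested that rose and 26.4% that fell. With no filter on low values 3 rose and 0 fell. Zfp462, a zinc finger protein that binds Pbx, rose by 0.77 on the log2 scale (limma adjusted p = 5.9e-06). Mybbp1a, a Pknox1 partner with the highest mean of the list over both stages, was at 475 and 467 at E8.5, and at 498 and 472 at E7.5 (adjusted p = 0.55). Of 11 corepressors and Smad partners of Tgif1, 3 rose and 0 fell at an adjusted p under 0.05. These were Ctbp1, at 0.47 on the log2 scale, Smad2, a mediator of Nodal signals, at 0.35, and Hdac2, with the highest mean over both stages, at 0.31. The share that rose was near the 25.6% of all genes tested, and 2 of the 11 rose with no filter on low values. Of 6 homeodomain partners of Pbx outside the Hox clusters, 2 were tested. Tlx2 rose by 1.89, at 6.09 and 6.21 at E8.5, and at 1.18 and 0.710 at E7.5, and Pdx1 fell by 0.95, at 0.472 and 0.209 at E8.5, and at 1.80 and 1.37 at E7.5. Pdx1 was under the minimum of 1 in both E8.5 libraries and entered the test through E7.5 only.

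Of 8 other TALE homeobox genes, mostly of the Irx family, 7 were tested. Of these 1 rose and 2 fell, beside 25.6% of all genes tested that rose and 26.4% that fell. Irx4 rose by 1.21, at 1.99 and 2.51 at E8.5, and at 0.450 and 0.355 at E7.5, and Irx1 fell by 0.87. Irx4 reached the minimum of 1 at E8.5 only and Irx1 at E7.5 only, the stage where each was high, and with no filter on low values 0 of the list fell. Irx3, with the highest mean over both stages, was at 8.71 and 9.50 at E8.5, and at 7.70 and 7.46 at E7.5 (adjusted p = 0.17). Tgif2, the relative of Tgif1, had a log2 fold change of 0.046 (SE 0.17, adjusted p = 0.84).

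Of 9 genes with enhancers known to be bound by Pbx, Meis or Pknox proteins, 7 were tested. Of these 3 rose and 1 fell, beside 25.6% of all genes tested that rose and 26.4% that fell. Hoxa3 rose by 2.31 and the eye and neural gene Pax6 by 1.90, while Hoxb1, whose hindbrain enhancer is a classical Pbx and Hox site, fell by 1.11, at 73.9 and 72.8 at E8.5, and at 163 and 157 at E7.5. Pax6 reached the minimum at E8.5 only. Hif1a, with the highest mean of them over both stages, was at 304 and 334 at E8.5, and at 295 and 302 at E7.5 (adjusted p = 0.21). Of 14 genes of the retinoic acid pathway, 13 were tested. Of these 5 rose and 4 fell, beside 25.6% of all genes tested that rose and 26.4% that fell. Cyp26c1, among those that rose, reached the minimum at E8.5 only. Cyp26a1, which degrades retinoic acid, rose by 2.17, and Aldh1a2, which makes it, fell by 3.20, at 34.6 and 33.6 at E8.5, and at 328 and 316 at E7.5. Meis2 and Aldh1a2 were thus both lower at E8.5 and Meis1 higher, and whether they are linked was not tested.

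Markers of cells that the dissected tissue could hold moved between the stages as well. Their counts stand beside 25.6% of all genes tested that were higher at E8.5 and 26.4% that were lower. Of 12 visceral endoderm markers 12 were lower at E8.5, with summed normalized counts of 410 and 427 at E8.5, and 3410 and 3305 at E7.5, and none was at 0. Of 10 endothelial markers 9 were higher, with sums of 267 and 243 at E8.5, and 89.2 and 87.1 at E7.5. Of 10 markers of primitive blood, 9 of them tested, 8 were higher and 1 lower, with sums of 430 and 434 at E8.5, and 29.4 and 28.8 at E7.5, and Hba-x and Hbb-y were at 0 at E7.5. The minimum value was reached at E8.5 only by 5 of the blood markers tested, 2 of the endothelial and 3 of the neural plate markers. Of 12 neural plate markers, 8 of them tested, 5 were higher and 1 lower (sums 179 and 180 at E8.5, 102 and 93.9 at E7.5). Zic1 was at 0 at E8.5 and Neurog2 at 0 at E7.5. Most of the neural plate sums was Crabp1, which the retinoic acid list shares, at 138 and 140 at E8.5, and at 78.6 and 72.8 at E7.5. Of 13 listed markers of the caudal epiblast and streak, the tissue nearest to the label, 11 were analysed here, of which 4 were higher and 6 lower and none was at 0 (sums 1758 and 1744 at E8.5, 1254 and 1271 at E7.5). Cdx4, an upstream regulator of Hox genes, was at 788 and 808 at E8.5, and at 65.1 and 67.8 at E7.5, and without it the sums of that list were 970 and 936 at E8.5, and 1189 and 1203 at E7.5. For lateral plate and cardiac mesoderm 5 rose and 5 fell of 12 tested (sums 334 and 339 at E8.5, 332 and 312 at E7.5), and for paraxial mesoderm 3 rose and 5 fell of 11 tested (sums 371 and 370 at E8.5, 451 and 458 at E7.5). For extraembryonic ectoderm 0 rose and 3 fell of 5 tested (sums 278 and 277 at E8.5, 354 and 310 at E7.5). Eomes, the largest decrease among those that fell, reached the minimum at E7.5 only. The paper counts Eomes with genes that first set up the body axis and germ layers. It is therefore not a marker of extraembryonic ectoderm alone. Without Cdx2, which the caudal list shares, the sums of the extraembryonic list were 18 and 17 at E8.5, and 95.2 and 82.7 at E7.5. The part of these cell types in the changes of the Meis, Pbx, Pknox and Tgif genes was not tested.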

How the data were processed

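Total RNA of pooled, dissected posterior epiblasts was made into libraries by the authors with the unstranded SMART-Seq2 protocol, sequenced from 1 end (75 bases) and mapped on mm10 by STAR. The paper names DESeq2 for normalization and the submitters' processing notes name edgeR, and the counting program is not given in the sources used here. The deposited values are a signal, reads per gene divided by a library factor (normalized counts). Values of a library were whole multiples of a single step, which returned whole reads for 100% of values within 1e-04 reads.

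Values were analysed as log2(value + 1) with limma 3.58.1 (R 4.3.3; lmFit, eBayes with trend, 2 residual and 12.78 prior degrees of freedom), for genes at 1 or more in at least 2 libraries. P-values were adjusted over all genes by the Benjamini-Hochberg method. Alternatives were edgeR 4.0.16 and DESeq2 1.42.0 on recovered reads, other scaling, pseudocounts of 0.1 and 4, no filter, a minimum of 5, a replicate block and each library left out. The test was run on simulated data with planted changes larger than those of most of the 9 genes. It was not checked on changes as small as theirs. Positions and lengths came from GENCODE vM21, in which 53311 of the 53397 identifiers were found. Beyond the 9 genes, the text names genes of a list from among its largest increase and decrease that passed and its highest mean, with a few others (Smad2, Tgif2) chosen after their values were seen. Some genes that the rule names are not reported here. Members and lists were chosen with earlier results of these data known, and lists are described by counts, with no set test. Marker lists covered caudal epiblast and streak, visceral endoderm, endothelium, primitive blood, lateral plate and cardiac mesoderm, paraxial mesoderm, neural plate and extraembryonic ectoderm.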

Additional observations from a re-analysis of the deposited data

How the results depend on the processing

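Meis1, Meis2, Meis3, Pbx3 and Pknox1 kept call and direction, and Pbx2 stayed without a call, in all 12 alternatives. The members higher at E8.5 numbered 3 in every alternative except the replicate block and the fit without E7.5 replicate 1, with 4 each, the added gene being Pknox2. The members lower numbered 2 to 3, Tgif1 being the one lost. With each library left out the higher count was 3 to 4 and the lower count 2 to 3. Whether same-numbered libraries were prepared together is not given in the sources used here. Their deviations had a correlation of -0.0025 over 13903 genes. The replicate block gave 4 members higher and 3 lower and changed no call but that of Pknox2. Pbx4 was -0.037 (log2, adjusted p = 0.89) without E7.5 replicate 1, -0.037 to 0.26 with each library left out, and was not tested at a minimum of 5.

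Per kb, the difference in share of the members' total, E8.5 minus E7.5, was 1.44 percentage points for Meis against -3.51 in reads, -3.26 for Pbx against -2.42, 3.92 for Pknox against 6.05 and -2.11 for Tgif against -0.12. Per kb of the longest transcript, added after the data were seen, it was -0.22 for Meis and -3.38 for Pbx. Leaving out each library gave -4.18 to -2.85 for Meis, -2.84 to -2.0 for Pbx, 5.15 to 6.95 for Pknox and -1.26 to 1.03 for Tgif, with 0.28 without E8.5 replicate 1. When low values were kept, 0 of the other TALE genes and 0 of the partners were lower and 1 extraembryonic ectoderm marker was higher. Over all genes, 7233 of 13903 were called, 5193 of 30205 with no filter and 5626 by DESeq2. With 2 pools a stage, the spread between pools is known poorly for any single gene.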
